A study of Mus musculus with 7 samples.

Results

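The genes described here are 10 genes of megakaryocytes and blood platelets: Itga2b, Itgb3, Vwf, Pf4, Gp1bb, Gp9, Zfpm1, Nfe2, Selp and Treml1. They were picked by symbol, and all 10 were found among the 39179 gene IDs of the deposited table. The cells were LSK cells, the lineage-negative, Sca-1-positive, Kit-positive fraction of bone marrow that holds the blood stem cells and multipotent progenitors, sorted from C57/BL6 mice aged 7 weeks. The 4 control libraries came from mice with the Vav1Cre transgene, and the 3 Jmjd1c libraries from Jmjd1c f/f Vav1Cre mice. All 7 libraries thus carry Cre under the Vav1 promoter, which is active across blood cells, and the floxed gene differs between the groups. JMJD1C belongs to the KDM3 group of JmjC histone demethylases. Whether the libraries came from different animals is not in the labels, so p-values reflect spread among these libraries alone. That spread may be technical in part, though Jmjd1c 3 differed from the other libraries in sex-linked genes, as given below.

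Megakaryocytes are the large marrow cells that shed platelets. Part of the stem cell compartment already transcribes platelet genes at a low level, a state called platelet priming or platelet bias, and Vwf and Itga2b are widely used to mark it. GATA1, with its partner FOG1, and factors of the ETS, RUNX and NF-E2 families drive the programme. The end products are adhesion receptors for fibrinogen and for von Willebrand factor, and granules that release adhesive proteins and chemokines.

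RefSeq promoter windows (GRCm38.p6, 250 bases before to 50 after the gene's start) were given for 7 of the 10 genes. Itgb3, Vwf and Nfe2 had no entry. The 250 bases before the start are shown for Itga2b, the gene of the set that rose, and for Pf4 and Gp9, platelet genes of high level per length that did not, with the letters of a GATA motif (AGATAA and the variants TGATAA and also AGATAG and further TGATAG) or an ETS motif (AGGAAG or else CGGAAG), on either strand, in capitals. They lie at chr11:102469884-102470133 (minus strand), chr5:90772185-90772434 (plus strand) and chr6:87777820-87778069 (plus strand).
Itga2b: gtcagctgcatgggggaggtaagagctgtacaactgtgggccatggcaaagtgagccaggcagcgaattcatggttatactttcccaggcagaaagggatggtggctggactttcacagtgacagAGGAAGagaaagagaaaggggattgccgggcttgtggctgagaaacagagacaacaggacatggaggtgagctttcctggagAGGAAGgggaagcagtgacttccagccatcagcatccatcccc
Pf4: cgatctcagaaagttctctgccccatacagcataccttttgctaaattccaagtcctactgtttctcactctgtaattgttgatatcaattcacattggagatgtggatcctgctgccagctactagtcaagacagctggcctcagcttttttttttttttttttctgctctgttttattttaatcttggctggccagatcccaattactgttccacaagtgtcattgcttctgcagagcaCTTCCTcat
Gp9: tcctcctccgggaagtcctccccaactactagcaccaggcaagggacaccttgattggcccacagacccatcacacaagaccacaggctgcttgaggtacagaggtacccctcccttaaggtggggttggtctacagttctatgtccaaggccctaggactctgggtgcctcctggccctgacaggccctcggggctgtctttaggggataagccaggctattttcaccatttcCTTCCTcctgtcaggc
In the whole 300-base windows, ETS letters occurred in 6 of the 7 genes and GATA letters in 2, against 46.5% and 29.8% of the 32851 windows of that length in the RefSeq table. Itga2b held 2 ETS matches, 125 and 43 bases before its RefSeq start, and no GATA match. The position given below for Itga2b comes from another annotation and runs to 102470122. Both matches and most of the stretch shown lie inside it. Pf4 held an ETS match 9 bases before its start and a GATA match after it, and Gp9 an ETS match 16 bases before its start. The RUNX letters TGTGGT were in the window of Gp9 alone (16.8% of all windows), and the NF-E2 core, TGAGTCA or else TGACTCA, in none of the 7 (5.2% of all windows). A match is a description of letters, not evidence of a site.

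Reads in genes numbered 4303712 to 6436519 per library. Values below are normalized read counts, which are reads after division by each library's size factor, and errors beside them are SDs. Jmjd1c had 458, 466, 516 and 512 normalized read counts in controls 1 to 4 and 294, 244 and 254 in Jmjd1c 1 to 3, with no overlap (log2 fold change -0.89, limma adjusted p = 0.00407; two-sided exact permutation p = 0.0286, the smallest that 35 splits allow). Jmjd1c 3 stood apart in sex-linked genes: Xist had 2767 normalized read counts there against 4.14 to 9.32 in the other 6 libraries, and Y-linked genes summed to 14.1 against 1367 to 1955. Control 4 stood apart in 9 macrophage markers, such as Vcam1 and C1qb, which summed to 9869 against 2459 to 3691 in the other controls and 2269 to 3942 in the Jmjd1c libraries. Kit (4778 to 7268), Cd34 (7850 to 8815) and Flt3 (4039 to 5956) were high in every library, and Ly6a, the Sca-1 gene, had 694 to 915. The stem cell genes Slamf1 (27.8 to 55.2) and Fgd5 (32.6 to 58.3) were low. Other stem cell genes were higher in every library: Hlf (1338 to 1725), Mecom (331 to 423), Mllt3 (236 to 361) and Procr (146 to 243).

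The genes for the fibrinogen receptor, integrin αIIbβ3, were the members that stood highest in the Jmjd1c libraries relative to control. Itga2b (CD41, the αIIb chain; chr11:102453297-102470122 of mm10, minus strand) had 287, 282, 294 and 260 normalized read counts in controls 1 to 4 and 341, 483 and 460 in Jmjd1c 1 to 3. Every Jmjd1c library lay above every control, and the controls spanned a narrow range. Itga2b rose from 281 ± 14.8 (n = 4) to 428 ± 76.4 (n = 3), a 1.51-fold difference, with a log2 fold change of 0.59 (SE 0.12, 95% interval 0.34 to 0.85; limma adjusted p = 0.0374). All fold changes come from limma on log2(value + 1), which understates the change of low genes. Itga2b was the only one of the 9 tested members to pass the threshold of an adjusted p of 0.05, where 1.51% of the 12813 tested genes passed as higher and 0.289% as lower. After correction for transcript GC content and length its log2 fold change was 0.37 and it was not called (limma adjusted p = 0.106). It was called without control 4 or Jmjd1c 1 and not without any of the other 5 libraries, where limma adjusted p ran from 0.0544 to 0.207.

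Itgb3 (the β3 chain; chr11:104608000-104670476, plus strand) had 65.6, 57.9, 58.3 and 45.5 normalized read counts in controls 1 to 4 and 67.9, 79.3 and 162 in Jmjd1c 1 to 3. The groups did not overlap, but Jmjd1c 1 lay just above control 1 and Jmjd1c 3 far above both other Jmjd1c libraries. The log2 fold change was 0.75 (95% interval 0.18 to 1.33) and missed the threshold (limma adjusted p = 0.153). Without Jmjd1c 3, the library with Xist, it was 0.38 (limma adjusted p = 0.43), while that of Itga2b was 0.53 (limma adjusted p = 0.124). Itga2b and Itgb3 were the 2 members whose groups did not overlap, both higher in Jmjd1c, as 9.74% of tested genes were. Per kilobase of exon, Itga2b stood above its partner throughout: the ratio of Itga2b to Itgb3 was 4.74 to 6.18 in the controls, 5.44 and 6.59 in Jmjd1c 1 and 2 and 3.07 in Jmjd1c 3. In the plot of values by library Itgb3 shows a single high point where Itga2b shows 2.

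**Figure D1:**
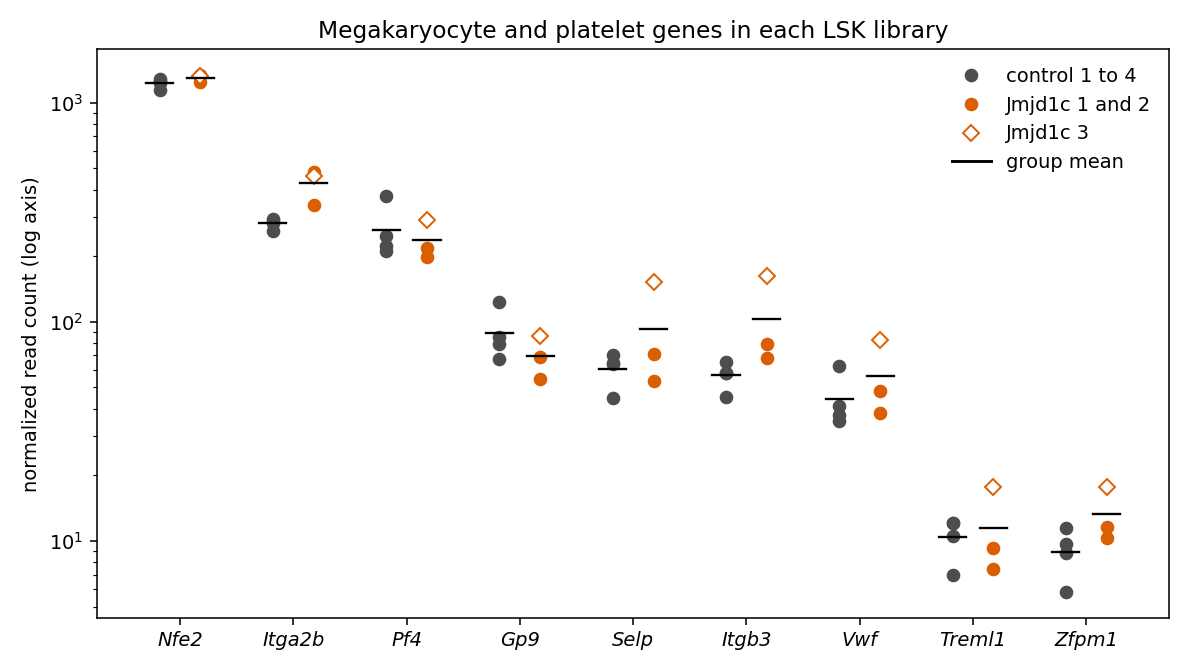
Normalized read counts (log axis) of the 9 tested genes in each library, controls in grey, Jmjd1c in orange, Jmjd1c 3 as an open diamond, with group means as lines. Jmjd1c 3 holds the highest value of Selp, Itgb3, Vwf, Treml1 and Zfpm1, and Itga2b is above all controls in each of the 3 Jmjd1c libraries.

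The receptor for von Willebrand factor, the GPIb-IX-V complex, tethers platelets to a damaged vessel wall, and its genes gave no common direction. Gp9 (the GPIX chain; chr6:87778072-87779768, plus strand) had 79.2, 67.6, 122 and 84.8 normalized read counts in controls 1 to 4 and 68.7, 54.6 and 85.7 in Jmjd1c 1 to 3. The groups overlapped widely, with the highest value in control 3 and the lowest in Jmjd1c 2. Its log2 fold change was -0.33 (95% interval -0.80 to 0.14; limma adjusted p = 0.419). Of the genes listed beside the members, Gp1ba, the chain that binds von Willebrand factor, had 37.6, 18.1, 22.1 and 34.1 against 32.3, 35 and 50.5, a difference of 0.51 on the log2 scale (limma adjusted p = 0.35). Gp5, the GPV chain, was too low to test, with 7, 3, 0 and 1 reads in controls 1 to 4 and 4, 1 and 16 reads in Jmjd1c 1 to 3.

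Gp1bb (the GPIbβ chain; chr16:18620317-18622403, minus strand) had 1 read in control 1, 1 in control 4 and 0 in the other 5 libraries, and was not tested. Its exons lie on the same strand as those of Sept5, which cover 1902 of its 2087 exonic bases (91.1%). How the authors' counting treated reads that fall in both genes is not given in the sources used here, so these counts cannot show that Gp1bb RNA was lacking. Sept5 itself had 11.4 ± 4.95 normalized read counts in the 4 controls and 13.9 ± 3.16 in the 3 Jmjd1c libraries.

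Genes of granule proteins split between those highest in Jmjd1c 3 and Pf4. Vwf (chr6:125546774-125686679, plus strand) encodes the adhesive protein that the GPIb receptor binds and marks platelet-biased stem cells. It had 37.6, 41, 62.9 and 35 normalized read counts in controls 1 to 4 and 38.1, 48.4 and 82.2 in Jmjd1c 1 to 3. Only Jmjd1c 3 lay above the control range, and the log2 fold change of 0.31 (95% interval -0.30 to 0.92; limma adjusted p = 0.574) became 0.00 without it.

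Selp (P-selectin, the granule membrane protein that binds leukocytes; chr1:164115264-164150026, plus strand) had 44.8, 70, 64.1 and 64.7 normalized read counts in controls 1 to 4 and 71.2, 53.6 and 151 in Jmjd1c 1 to 3. Jmjd1c 2 lay inside the control range, Jmjd1c 1 just above it and Jmjd1c 3 at more than any other library. The log2 fold change was 0.47 (95% interval -0.19 to 1.12; limma adjusted p = 0.411), and 0.04 without Jmjd1c 3. The antisense genes Gm16548 and Gm16587 overlap 438 and 186 of its 4413 exonic bases, and the strand setting of the counting is not known here. Treml1, a granule receptor that reaches the platelet surface on activation (chr17:48359916-48367176, plus strand), was near the limit of the test: 12, 12.1, 10.5 and 7 normalized read counts against 7.45, 9.27 and 17.6. Its log2 fold change of 0.07 (95% interval -0.74 to 0.88; limma adjusted p = 0.936) turned to -0.26 without Jmjd1c 3 and to -0.09 without control 4.

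Vwf and Selp are also genes of endothelial cells. Of 12 endothelial markers, 4 (Cdh5, Kdr, Plvap and Ramp2) were under 10 normalized read counts in every library, and Cdh5, the cadherin that defines the type, was at 0 in controls 1 and 3 and at most 2.62 elsewhere. Others were well above that level, such as Pecam1 (837 to 1066), Egfl7 (423 to 624), Esam (228 to 355) and Tie1 (200 to 331). The 12 summed to 2216 to 2747 in the controls, 2428 and 2245 in Jmjd1c 1 and 2 and 2285 in Jmjd1c 3, where Vwf and Selp were highest. Those 4 genes made up most of the sum in every library, so it does not measure endothelial cells. The part of such cells in Vwf and Selp was not tested.

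Pf4 (platelet factor 4, a granule chemokine; chr5:90772435-90773383, plus strand) had 221, 210, 247 and 373 normalized read counts in controls 1 to 4 and 216, 198 and 292 in Jmjd1c 1 to 3. Control 4 was the highest library and Jmjd1c 3 the next. The log2 fold change was -0.14 (95% interval -0.56 to 0.28; limma adjusted p = 0.72), and 0.04 without control 4, the library with the high macrophage markers. The part of those cells in the Pf4 value of control 4 was not tested. Ppbp, a related platelet chemokine, had 8.74 to 19.3 in the controls and 13.4 to 24.7 in the Jmjd1c libraries (log2 fold change 0.38, limma adjusted p = 0.564).

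**Figure D2:**
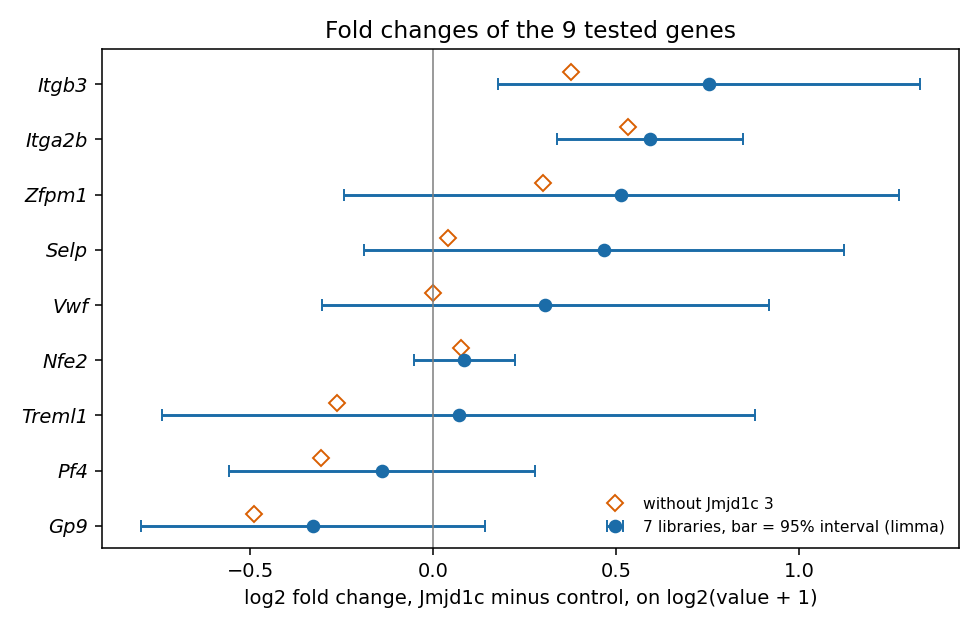
Log2 fold change (Jmjd1c minus control, on log2(value + 1)) of the 9 tested genes with all 7 libraries and its 95% interval from limma, and the estimate without Jmjd1c 3 as an open diamond. The intervals of Itga2b and Itgb3 lie above 0. Without Jmjd1c 3 the estimate of Itga2b moves from 0.59 to 0.53 and that of Itgb3 from 0.75 to 0.38.

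Of both transcription factor genes among the members, Nfe2, the blood-specific subunit of NF-E2 that late megakaryocyte maturation needs (chr15:103248212-103258403, minus strand), was the most abundant member. It had 1282, 1250, 1223 and 1141 normalized read counts in controls 1 to 4 and 1246, 1331 and 1316 in Jmjd1c 1 to 3. The groups overlapped, and the interval was narrow: a log2 fold change of 0.09 with a 95% interval of -0.05 to 0.22 (limma adjusted p = 0.477). Zfpm1, which encodes FOG1, the partner of GATA1 (chr8:122282141-122337251, plus strand), had 8.80, 9.66, 5.83 and 11.4 against 11.6, 10.3 and 17.6. With 5 to 15 reads in each library its interval was wide (log2 fold change 0.51, 95% interval -0.24 to 1.27; limma adjusted p = 0.435).

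Per kilobase of exon, the order of the members in the controls was Nfe2 (410 ± 20.2 normalized read counts per kilobase, SD, n = 4), Pf4 (365 ± 104), Gp9 (100.5 ± 26.9), Itga2b (51.5 ± 2.71), Selp (13.8 ± 2.51), Itgb3 (9.63 ± 1.42), Treml1 (7.41 ± 1.70), Vwf (2.75 ± 0.795), Zfpm1 (2.54 ± 0.661) and Gp1bb (0.201 ± 0.232). Among neighbours in this order, the control values of Nfe2 and Pf4 overlapped, as did those of Selp and Itgb3, Itgb3 and Treml1, and Vwf and Zfpm1. In the Jmjd1c libraries Itga2b, at 78.5 ± 14.0 (SD, n = 3), was level with Gp9 at 79.1 ± 17.7. Over all 7 libraries Nfe2 stood at percentile 94.5 of the tested genes with a known length, Pf4 at 93.0, Gp9 at 72.0 and Itga2b at 62.9, while Vwf and Zfpm1 stood at 4.03 and 4.01. A level in sorted bulk cells cannot tell more cells with a transcript from more transcript per cell.

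Of 99 other megakaryocyte and platelet genes in 5 lists by role, 88 were tested, 4 rose, 1 fell and 83 did not pass, against 1.8% called of all tested genes. At an unadjusted p under 0.05 limma had 21 higher and 6 lower, against 1524 and 1005 of all tested genes. Their median log2 fold change was 0.08, that of the 9 tested members 0.31 and that of all tested genes -0.01, and without Jmjd1c 3 these were 0.05, 0.04 and 0.00. Without Jmjd1c 3, and also without control 2, control 3 or Jmjd1c 2, limma called 0 of the 87 or 88 tested, with 19 to 27 at an unadjusted p under 0.05. Over all 12689 to 12738 tested genes these fits called only 3 to 9, with 1678 to 2247 at an unadjusted p under 0.05. A count of 0 there thus says little about the list. Without Jmjd1c 1 it called 12 as higher and 1 as lower, when 4.96% of all tested genes were called.

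With all 7 libraries none of the 16 transcription factor genes passed in limma or edgeR, and 5 had an unadjusted p under 0.05 in limma, which 19.7% of all tested genes had. DESeq2 called 1, Gata2, against 4.6% of all. Without Jmjd1c 1, limma called Gata1 (adjusted p = 0.0433), Gata2 (0.0487) and Mafk (0.0272), when 4.96% of all tested genes were called. Gata1, the central factor of the lineage and an X-linked gene, had 125, 126, 126 and 120 normalized read counts in controls 1 to 4 and 154, 163 and 201 in Jmjd1c 1 to 3. The groups did not overlap, and Jmjd1c 3, the library with Xist, was highest (log2 fold change 0.46, limma adjusted p = 0.0642, and 0.35 with adjusted p = 0.237 without Jmjd1c 3). Gata2, its relative in stem cells, had 203 to 326 in the controls and 322 to 431 in the Jmjd1c libraries (log2 fold change 0.54, limma adjusted p = 0.0815), and Mafk, a small MAF partner of NF-E2, 191 to 214 and 216 to 290 (0.36, limma adjusted p = 0.12). Fli1, the ETS factor of megakaryocytes, and Runx1 had log2 fold changes of -0.03 and 0.08 (limma adjusted p = 0.85 and 0.733).

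Of 6 tested genes of the thrombopoietin axis, the main growth signal of megakaryocytes, none passed in limma with the settings used throughout or in edgeR, and 2 had an unadjusted p under 0.05 in limma. Stat5a was called by DESeq2, by limma with a pseudocount of 10, with no filter and with a filter of 50, and without Jmjd1c 1. Stat5a, a transcription factor of cytokine signalling, had 359 to 403 normalized read counts in the controls and 431 to 591 in the Jmjd1c libraries, with no overlap, at 0.46 (limma adjusted p = 0.0514). Of 16 tested surface receptor genes none passed in limma or edgeR. DESeq2 called P2rx1 as higher and Cd36 as lower, against 4.6% of all tested genes. An unadjusted p under 0.05 in limma was seen for 5 of the 16 (31.2%), against 19.7% of all. Without Jmjd1c 1, limma called P2rx1, against 4.96% of all. The ATP-gated channel gene P2rx1 stood at 0.48 on the log2 scale (limma adjusted p = 0.0877), the thromboxane receptor gene Tbxa2r had 0.49 (limma adjusted p = 0.0944) and Cd36, a scavenger receptor also made by macrophages, had -0.74 (limma adjusted p = 0.142), with its highest value, 289, in control 4.

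Granule genes held 3 of the 5 calls among 24 tested, which is 12.5%, against 1.8% of all tested genes. An unadjusted p under 0.05 in limma was seen for 5 of them (20.8%), against 19.7% of all. DESeq2, and limma without Jmjd1c 1, each called the same 3 genes, against 4.6% and 4.96% of all. Nbeal2, which alpha-granule formation requires, had 230, 216, 231 and 174 normalized read counts in controls 1 to 4 and 285, 397 and 512 in Jmjd1c 1 to 3. It rose by 0.87 (limma adjusted p = 0.0374), without overlap. Hps1, of a complex for the biogenesis of dense granules and other lysosome-related organelles, rose by 0.50 (limma adjusted p = 0.0405), from 243 ± 12.7 (n = 4) to 345 ± 46.4 (n = 3). F13a1, the coagulation factor XIII A chain, which monocytes and macrophages also make, fell by 0.63 on the log2 scale (limma adjusted p = 0.0343). It had 1031 to 1435 in the controls, with control 4 highest, and 679 to 854 in the Jmjd1c libraries, and was still called without control 4 (-0.53).

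Signalling and cytoskeleton genes gave the other 2 calls of 26 tested (7.69%, against 1.8% of all tested genes). At an unadjusted p under 0.05 limma had 8 higher and 2 lower (38.5%), against 19.7% of all. DESeq2 called 5 as higher and 1 as lower, against 4.6% of all. Without Jmjd1c 1, limma called 5 as higher, against 4.96% of all, and Tln1 was called in both. Myh9, the non-muscle myosin heavy chain whose mutation causes large platelets, rose by 0.54 (limma adjusted p = 0.0317), from 1204 ± 119 (n = 4) to 1752 ± 198 (n = 3). Bin2, a membrane-bending protein of platelets and leukocytes, rose by 0.46 (limma adjusted p = 0.0317), from 1659 ± 47.4 to 2295 ± 276. For Tln1, talin, which switches the fibrinogen receptor to its active form, the log2 fold change was 0.34 (limma adjusted p = 0.0579), without overlap, and Tubb1, the platelet tubulin gene, was too low to test. With GC content and length corrected for, none of the 5 called genes passed, with log2 fold changes of 0.54 for Nbeal2, 0.30 for Hps1, 0.29 for Myh9, 0.38 for Bin2 and -0.63 for F13a1.

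**Figure D3:**
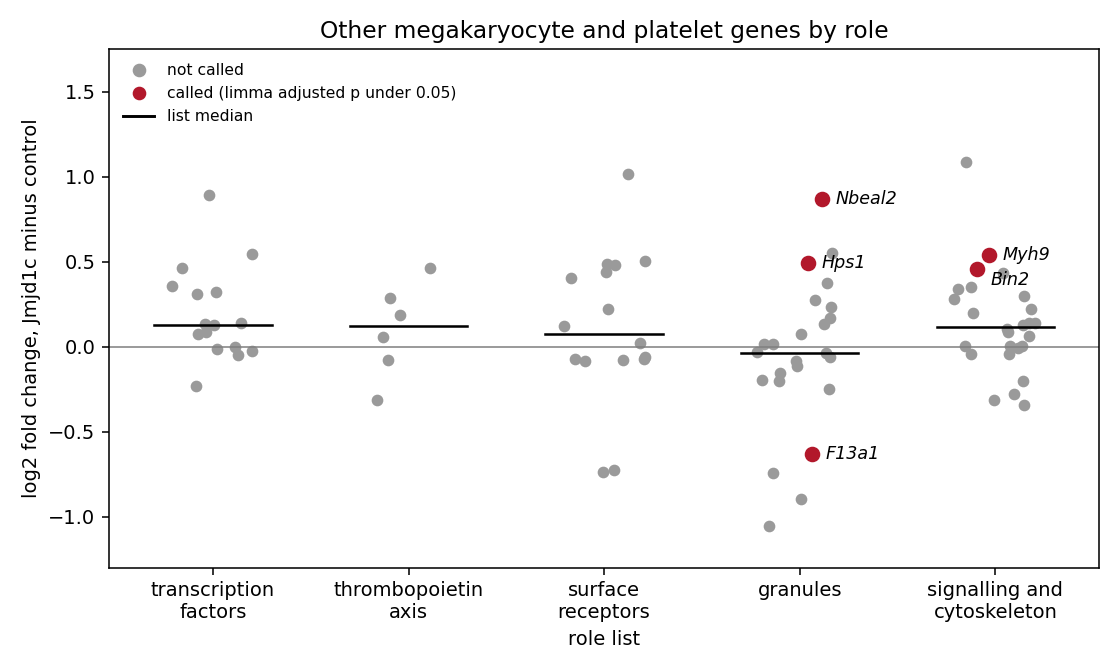
Log2 fold change (Jmjd1c minus control) of 88 tested megakaryocyte and platelet genes outside the 10 described, in 5 role lists, with the 5 called genes in red and the list medians as lines. Nbeal2 (0.87), Myh9 (0.54), Hps1 (0.50) and Bin2 (0.46) lie above 0 and F13a1 (-0.63) below.

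The libraries did not share the high values evenly. Of the 9 tested members, 5 (Itgb3, Vwf, Selp, Treml1 and Zfpm1) had their highest value in Jmjd1c 3, which is 55.6%, as had 37 of the 88 other genes (42.0%) and 22.1% of all tested genes. Jmjd1c 1 held the highest value of 0 members and of 1 of the other genes (1.14%), against 6.25% of all. The filter of at least 10 in at least 3 libraries left out 11 other megakaryocyte genes, and 1 of them had no reads. Of the rest, 6 were highest in Jmjd1c 3 (Gp5, Gp6, Mpig6b, Thbs1, Gnaz and Alox12) and 4 in other libraries (Cd226, Tubb1, Myl9 and Dnm3). All but Gp5 and Tubb1 were named here after their values were seen. No such share was taken over all genes that the filter left out. Gp6, the collagen receptor gene, had 5 reads in Jmjd1c 3, 1 in control 2 and 0 elsewhere. Thbs1, thrombospondin 1 of the alpha granule, singled out here after its values were seen, had 654 reads (768 normalized read counts) in Jmjd1c 3 and 4 to 13 reads in each other library. Sex, by the genes above, cannot be told apart from other traits of Jmjd1c 3, since no other library of either group had Xist at that level. With Jmjd1c 3 included, the group difference also holds a difference in sex.

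**Figure D4:**
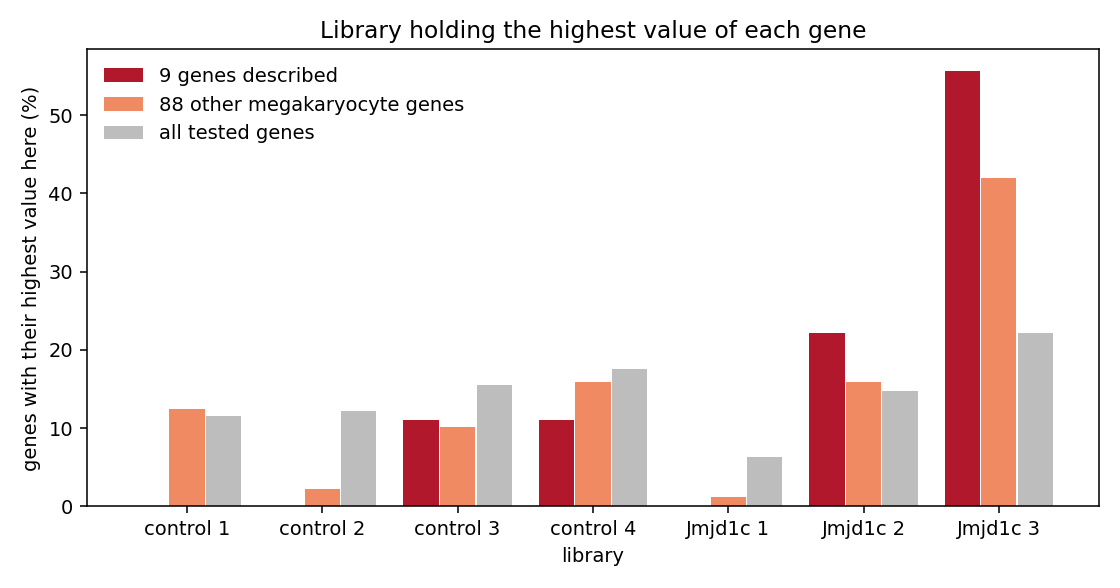
Share of genes whose highest normalized read count lies in each library, for the 9 tested members, 88 other megakaryocyte genes and all tested genes. Jmjd1c 3 holds 55.6%, 42.0% and 22.1% of them.

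The erythroid lineage shares a progenitor and GATA1 with the megakaryocyte lineage, and 16 of 17 erythroid markers were tested. With all 7 libraries limma and edgeR called none of them, and 2 (12.5%) had an unadjusted p under 0.05 in limma, against 19.7% of all tested genes. Klf1 was called by DESeq2 and, without Jmjd1c 1, by limma (adjusted p = 0.0324), against 4.6% and 4.96% of all. As with the platelet genes, Jmjd1c 3 held many of the highest values, 7 of 16 (43.8%). Klf1, an erythroid factor that opposes the megakaryocyte fate, had 16.3 to 45.9 normalized read counts in the controls and 38.9, 74.2 and 97.5 in Jmjd1c 1 to 3 (log2 fold change 1.23, limma adjusted p = 0.102), and Epor, the erythropoietin receptor gene, had one of 0.43 (limma adjusted p = 0.452). The summed erythroid markers overlapped, at 14545 to 16538 in the controls and 14937 to 15576 in the Jmjd1c libraries, but Car2 alone made up 80.6% to 87.6% of that sum. Summed markers of basophils and mast cells were lower in every Jmjd1c library (2279 to 4773) than in any control (5914 to 9068). Prss34 (1602 to 6828) made up most of that sum. Limma called 2 of the 7 tested genes, both lower, against 0.289% of all tested genes called as lower. Summed neutrophil markers were also lower but barely separated (6896 to 9914 against 9922 to 13348). Of those 9 genes, 3 did not overlap, all lower, against 910 of all 12813 tested genes. Limma called 0 of the 9, against 1.8% of all. The 10 markers of B and plasma cells had a median log2 fold change of -0.99. In limma 6 were lower at an unadjusted p under 0.05, against 1005 of all 12813 tested genes. Igha was the 1 called, as lower, against 0.289% of all. The 10 markers summed to 12429 and 10327 in Jmjd1c 1 and 2 and to 19401 to 29416 in the controls. In Jmjd1c 3, the highest library, they summed to 30538, and Ighm gave 18316. Whether such shifts in the sorted mixture bear on Itga2b, or on the genes that were highest in Jmjd1c 3, was not tested.

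The 5 tested genes whose log2(value + 1) followed Itga2b most closely over the 7 libraries were Usp22 (Pearson r = 0.989), Mafk (0.986), Scaf8 (0.985), Smtn (0.984) and Abhd2 (0.984). These are the top of 12812 genes compared over 7 points that share libraries and the group difference, and they are given as a description only.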

How the data were processed

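Per the labels' protocols, Trizol RNA from sorted LSK cells went through a SMARTer ultra-low-input kit and a paired-end Illumina kit. The authors deposited a signal per gene and library; the tools in the submitters' processing notes are Trim Galore 0.2.8, STAR, HTSeq 0.6.1p1, DESeq 1.18.0, with the build mm10. The annotation release, like the strand setting and filters, is not given in the sources used here. Deposited values were whole multiples of a step per library, so whole reads were recovered for 100% of values within a tolerance of 0.01 (largest distance 6.02e-06). Symbols matched 37607 of 39179 IDs. Positions, lengths, GC content and overlaps came from GENCODE M21 (GRCm38, the assembly of mm10).

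The test was limma-trend (limma 3.58.1, R 4.3.3) on log2(value + 1) for the 12813 genes with at least 10 in at least 3 libraries, 4 control against 3 Jmjd1c, with Benjamini-Hochberg adjustment over all tested genes and a threshold of 0.05. The steps were tested on simulated data. Alternatives were pseudocounts of 0.5 and 10, no filter and a filter of 50, TMM scaling, limma without trend, edgeR 4.0.16 and DESeq2 1.42.0 on recovered reads, a replicate block, a loess correction for GC content and length (136 genes without annotation left out), and leaving out each library. The members and the lists were chosen with earlier results of these data known. Named genes are the 10 members, Jmjd1c, called genes of the role lists or the 3 smallest p-values of a list where fewer passed, 10 marker genes in any case, and the 5 genes most like Itga2b; not all are named in the text. Libraries of a group differed by more than sampling noise, so none was counted as a duplicate.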

Additional observations from a re-analysis of the deposited data

Results flagged for a closer look

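Among the 4 control libraries, 43 sets of values were examined for a library far from the other 3, and 2 were found, about as many as the 1 in 20 that chance gives. The 9 macrophage markers summed to 9869 normalized read counts in control 4 and to 2459 to 3691 in the other controls; Pf4 was also highest in that library. The 8 T and NK cell markers summed to 1962 in control 1 against 1739 to 1771 in the other controls, and Nkg7 made up most of that sum.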

How the results depend on the processing

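The count of members called (1) was 0 with limma without the intensity trend, with the replicate block, with the GC content and length correction and with both, and 0 to 1 when a library was left out; it was 1 with the other pseudocounts, filters, TMM scaling, edgeR and DESeq2. The 5 other megakaryocyte genes called became 0, 0, 0 and 1 under those same 4 settings, 13 with DESeq2, and 0 to 13 without single libraries. Over all genes the count of 231 (194 higher, 37 lower) became 0 in limma without the trend (2213 genes at an unadjusted p under 0.05), 590 with DESeq2 (473 higher, 117 lower), 14 with the replicate block (7 higher, 7 lower), 22 with the GC content and length correction (14 higher, 8 lower) and 34 with both (18 higher, 16 lower). It ran from 3 without control 2, control 3 or Jmjd1c 2 (0 higher each) to 631 without Jmjd1c 1, with 9 without Jmjd1c 3 and 72 without control 1. Jmjd1c kept its log2 fold change of -0.89 in limma without the trend but was not called there (adjusted p = 0.117). Without single libraries Vwf ran up to 0.545, Pf4 down to -0.306 and Treml1 up to 0.307. Vwf reversed to -0.016 with the block and the correction and to -0.00039 without Jmjd1c 3. Pf4 reversed to 0.041 with the block and without control 4 and to 0.138 with the block and the correction. Treml1 reversed to -0.091 with the block and without control 4, to -0.135 with the block and the correction and to -0.263 without Jmjd1c 3. Fli1 reversed to 0.019 with the correction and to 0.0051 with the block and the correction. The cause of these changes was not tested. The labels do not say whether replicate numbers pair the libraries. The correlations across genes of same-numbered libraries' deviations were -0.152, -0.0021 and 0.0174, and no library correlated best with its own number. Those deviations are from means of few libraries, so the values cannot exclude a pairing. Control 4 has no Jmjd1c library of its number, so the block also takes it out of the estimate and gives the fold changes found without control 4 (0.555 for Itga2b in both). Genes with under 20 reads per library, such as Zfpm1 and Treml1, are limited by depth.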
